A study of Mus musculus with 12 samples.

Results

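The 41 genes described here encode the machinery that copies DNA, and their levels were measured in Ly6C+ monocytes from mouse bone marrow and fetal liver. They are a list of named genes, taken by symbol from a table of 55487 genes by their known role in replication. All 41 passed the filter on low counts, as did 14618 genes in all. By role, the list holds 4 genes of origin recognition and licensing, 12 of the helicase, 9 of the polymerases and primase, and 6 of the sliding clamp and its loader. The rest are the flap nuclease and DNA ligase (2 genes), the single-strand binding complex (3), nucleotide supply (3) and chromatin assembly (2).

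DNA replication begins at origins, which the origin recognition complex marks and where Cdc6 and Cdt1 load the Mcm2 to Mcm7 ring in G1 phase. In S phase Cdc45 and the GINS complex join the ring to form the working helicase, primase and polymerase alpha lay down short primers, and polymerases delta and epsilon extend them on the clamp PCNA. Most of these genes are targets of E2F transcription factors, which are held in check by the retinoblastoma protein family until a cell commits to division. Monocyte precursors divide, whereas mature classical monocytes largely do not. In bulk RNA, fewer cells of a type and less RNA per cell cannot be told apart.

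Each of 4 groups had 3 libraries, made from equal numbers of Ly6C+ monocytes (50k each). The BM libraries were from bone marrow of genotype WT, with no age in the labels. The KO libraries were from fetal liver at E13.5 (E for embryonic day) with genotype KO. The allele is not stated in the labels, but cMaf and Zeb2 are in the title of the series, and mice called Z165KO in its design text. The Mixed libraries were from fetal liver at E15.5 with genotype WT, and what "Mixed" denotes is not in the labels. The WT libraries were from fetal liver of genotype WT, WT 1 at E13.5 and WT 2 and WT 3 at E15.5, so KO differed from Mixed, and from 2 of the 3 WT libraries, in day as well as in genotype.

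Total counts per library ran from 17384911 to 24473471. Levels below are in CPM (counts scaled to a common library size) after scaling by the trimmed mean of M-values (TMM), and a gene is called higher or lower where edgeR's quasi-likelihood test gave an adjusted p under 0.05 over all 14618 genes. Zeb2, the zinc-finger gene in the series title, was at 23.8, 20.1 and 22.5 CPM in KO, 141 to 165 in WT, 159 to 179 in Mixed and 311 to 338 in BM, with no overlap between KO and any other group. The monocyte markers Ly6c2, Ccr2, Csf1r, Lyz2 and F13a1 were present in every library, the lowest value being 353 CPM for Csf1r in KO 1. Other monocyte markers had far lower values. Cd14 was at 5.1 to 8.7 CPM in KO and 16.7 to 22.5 in WT, and Vcan at 5.8 to 6.9 and 21.1 to 39.9. Summed over a list of 10 classical monocyte genes, the level was 35110 to 35780 CPM in BM, 11010 to 12480 in WT, 14610 to 14710 in Mixed. In KO it was 7917 to 8922 CPM. Against WT, 4 of the 10 genes were called higher in KO and 6 lower, where 18.2% and 19.9% of all tested genes were. Whether the 3 libraries of a group are from different animals is not in the labels, so a p-value here reflects sample-to-sample spread that could be technical.

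Promoter stretches of 8 members are shown because a larger share of the replication genes than of all tested genes held E2F words. Promoter windows from 250 bases before to 50 bases after the start were at hand for 34 of the 41 members, from RefSeq on GRCm38.p6. They were searched on both strands for the words TTTGGCGC, TTTCGCGC, TTTCCCGC and TTTGCCGC, which match the E2F consensus. The E2F words on each strand are in capitals, and overlapping words run together.
Orc1: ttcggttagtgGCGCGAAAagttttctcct
Cdc6: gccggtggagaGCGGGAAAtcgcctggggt
Cdt1: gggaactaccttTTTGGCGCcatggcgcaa
Mcm3: gtgGCGGGAAAacttgggaagtTTTGGCGC
Mcm5: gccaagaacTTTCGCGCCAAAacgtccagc
Mcm6: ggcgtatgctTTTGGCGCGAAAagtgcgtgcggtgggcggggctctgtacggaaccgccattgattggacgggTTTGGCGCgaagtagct
Pola1: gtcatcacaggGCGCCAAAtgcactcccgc
Gins3: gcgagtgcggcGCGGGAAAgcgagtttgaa

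These stretches lie at chr4:108579416-108579445 (Orc1, plus strand), chr11:98908002-98908031 (Cdc6, plus), chr8:122568035-122568064 (Cdt1, plus) and chr1:20820267-20820296 (Mcm3, minus). Those of Mcm5, Mcm6, Pola1 and Gins3 lie at chr8:75109347-75109376 (plus), chr1:128359736-128359825 (minus), chrX:93632275-93632304 (minus) and chr8:95633507-95633536 (plus). In the GENCODE annotation the Mcm5, Mcm6 and Pola1 stretches fall outside any gene, and the Cdc6 stretch in a gene body but in no exon. The Orc1 stretch falls partly in an exon, as the annotated gene starts at chr4:108579423. The Mcm3 and Gins3 stretches fall in untranslated exon sequence, and the Cdt1 stretch spans the end of the untranslated leader and the first codons.

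An E2F word was present in 14 of the 34 members (41.2%), against 4.65% of 10045 tested genes with a window and 2.6% of all 27025 genes with one. The words were in 3 of 4 origin licensing genes, 5 of 8 helicase genes with a window and 4 of 7 polymerase genes. They were in 1 of 5 clamp and loader genes and 1 of 2 flap and ligase genes, and in none of the 3 single-strand binding, 3 nucleotide supply and 2 chromatin assembly genes. The words of Mcm5 overlapped on opposite strands, and Mcm6 held such a pair and a further word nearer the start. A match is a description of the letters and not a bound site, and a window without a match says nothing about E2F at that gene.

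**Figure D1:**
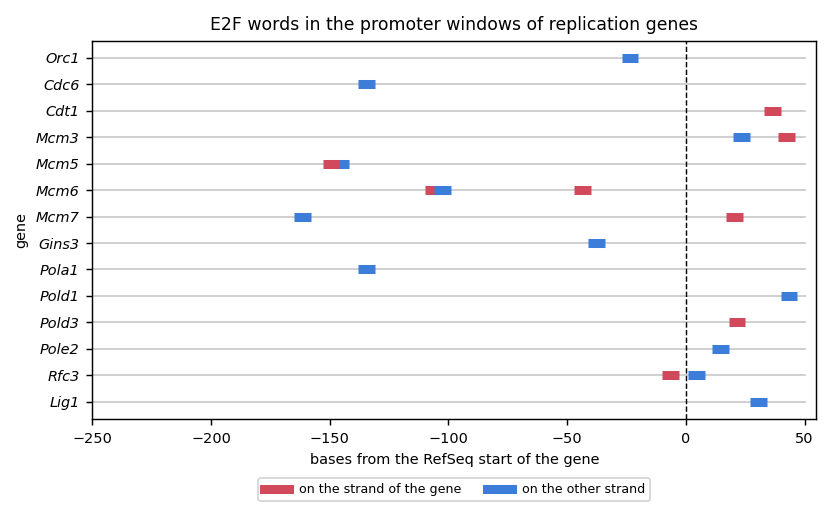
Position of E2F words in the promoter windows of the 14 replication genes that hold one, in bases from the RefSeq start (dashed line), red on the strand of the gene and blue on the other strand. The words of Mcm5, Mcm6, Mcm7, Cdc6 and Pola1 include one more than 90 bases before the start, whereas those of Cdt1, Mcm3, Pold1, Pold3, Pole2 and Lig1 lie after it.

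The 5-letter box CCAAT was present in 22 of 34 member windows (64.7%) and 43.9% of tested genes, and the cell cycle homology words TTTGAA and TTCGAA in 7 (20.6%) and 17.2%. Rrm2 and Pold2, whose levels departed from the other members in KO in opposite directions, held no E2F word. Rrm2 held 1 CCAAT box and no cell cycle homology word. Pold2 held 3 CCAAT boxes and 2 cell cycle homology words over its 2 windows. For each gene 1 box is shown in capitals on the strand of the gene.
Rrm2: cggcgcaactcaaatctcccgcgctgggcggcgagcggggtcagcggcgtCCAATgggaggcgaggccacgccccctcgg
Pold2: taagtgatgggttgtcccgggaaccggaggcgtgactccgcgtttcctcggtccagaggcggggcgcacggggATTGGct
The Rrm2 stretch is chr12:24708154-24708233 (plus strand) and the Pold2 stretch chr11:5878297-5878376 (minus), both outside any annotated gene. The box shown for Pold2 reads CCAAT on the other strand.

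Bone marrow monocytes had less of nearly the whole replication machinery than WT fetal liver monocytes. Of the 41 genes, 38 were lower in BM and none was higher, where 31.9% of all tested genes were called lower, 32.1% higher and 64.0% in either direction. The median log2 fold change of the 41 was -0.59, or 1.51-fold lower in BM, against 0.0031 over all tested genes. At least 2-fold lower were 4 genes, a further 17 were 1.5- to 2-fold lower and 17 less than 1.5-fold. For 38 genes, every BM library lay below every WT library, as did 34.0% of all tested genes. The 3 not called were Gins3, Pold2 and Pole.

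In KO monocytes the machinery was lower in part, by small amounts, and 2 genes were higher. KO against WT gave 17 members lower and 2 higher, where 19.9% of all tested genes were called lower, 18.2% higher and 38.1% in either direction. The median log2 fold change was -0.10, against -0.03 over all tested genes, and 34 of the 41 values were negative. No member changed 2-fold, and Pold2 alone of the 19 passed 1.5-fold. All 3 KO libraries lay below all WT libraries for 18 members (25.4% of all tested genes) and above them for 3 (22.1%).

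The number of KO calls differed between settings. With total counts and no TMM scaling, 27 members were lower and 1 higher, while the median over all tested genes moved to -0.13 and that of the members to -0.20. Among all genes called, 47.7% were higher in KO with TMM and 32.5% without it. With embryonic day in a fit to the 9 fetal liver libraries, which tested 14112 genes and sets KO against WT 1 alone, 4 members stayed lower, namely Cdt1, Mcm3, Pold2 and Rfc4, and Rrm2 and Rfc2 stayed higher. Several of the calls lost there had changes of similar size, such as Orc1 (log2 -0.32), Pole (-0.25) and Pole2 (-0.21), against -0.33, -0.30 and -0.23 without day. Other lost calls were smaller against the WT library of the same day. As log2 of the KO mean over WT 1, Pold3 was at -0.0836, Pold1 at -0.097 and Mcm2 at -0.0912. Against all 3 WT libraries these were -0.185, -0.199 and -0.138. Without KO 2 the lower members numbered 11. Through all 21 alternative settings, 5 of the 19 calls held: Cdt1, Mcm3, Pold2 and Rfc4 lower, and Rrm2 higher.

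Mixed and WT monocytes gave a difference in 1 member only. Pold1 was higher in Mixed and no member was lower, where 4.21% of all tested genes were called higher, 3.87% lower and 8.07% in either direction. The median log2 fold change of the 41 was 0.02, against -0.01 over all tested genes. At an adjusted p of 0.028 by edgeR, the Pold1 call was lost when Mixed 1, Mixed 2, WT 1 or WT 2 was left out and when embryonic day was in the fit. KO, Mixed and BM were each set against the same WT libraries, so these 3 comparisons share their control.

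**Figure D2:**
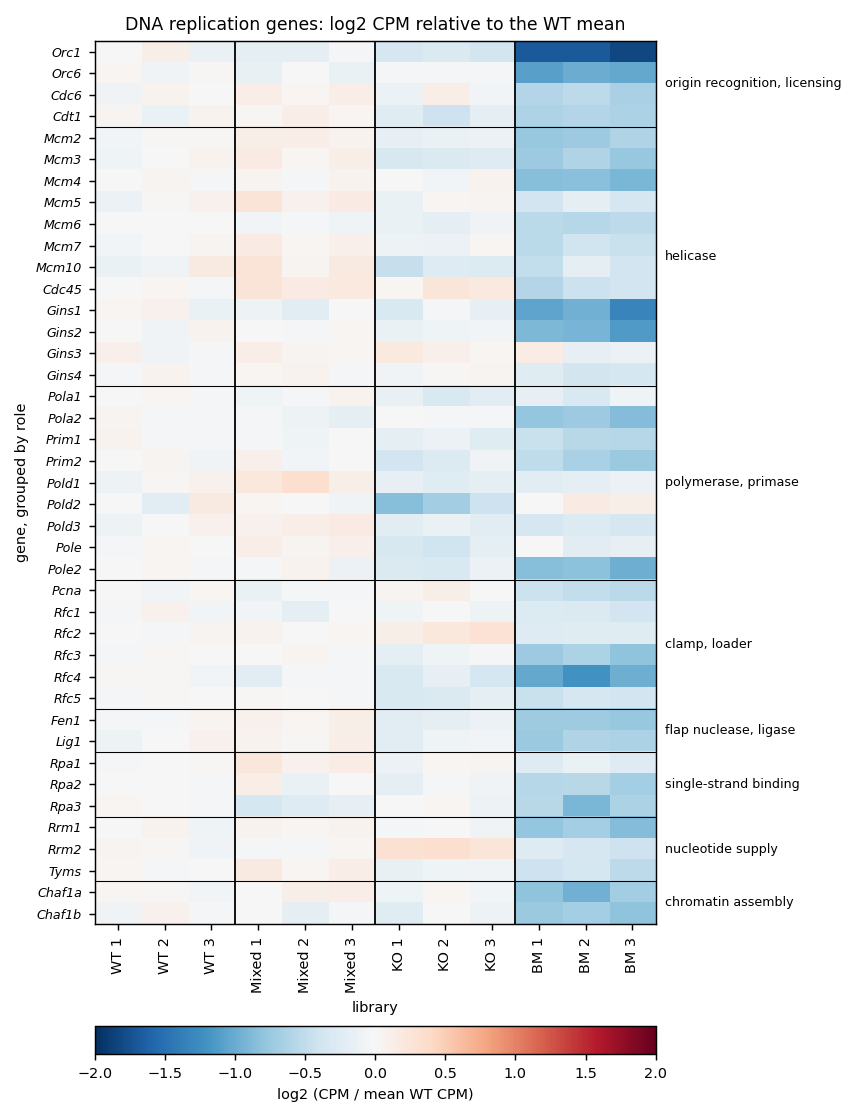
CPM of each of the 41 genes in each of the 12 libraries as log2 of its ratio to the mean of the 3 WT libraries, blue for lower and red for higher, with genes grouped by role. The BM columns are blue for nearly every gene, Orc1 most of all, whereas in KO Pold2 is the bluest gene and Rrm2 is red in all 3 libraries.

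**Figure D3:**
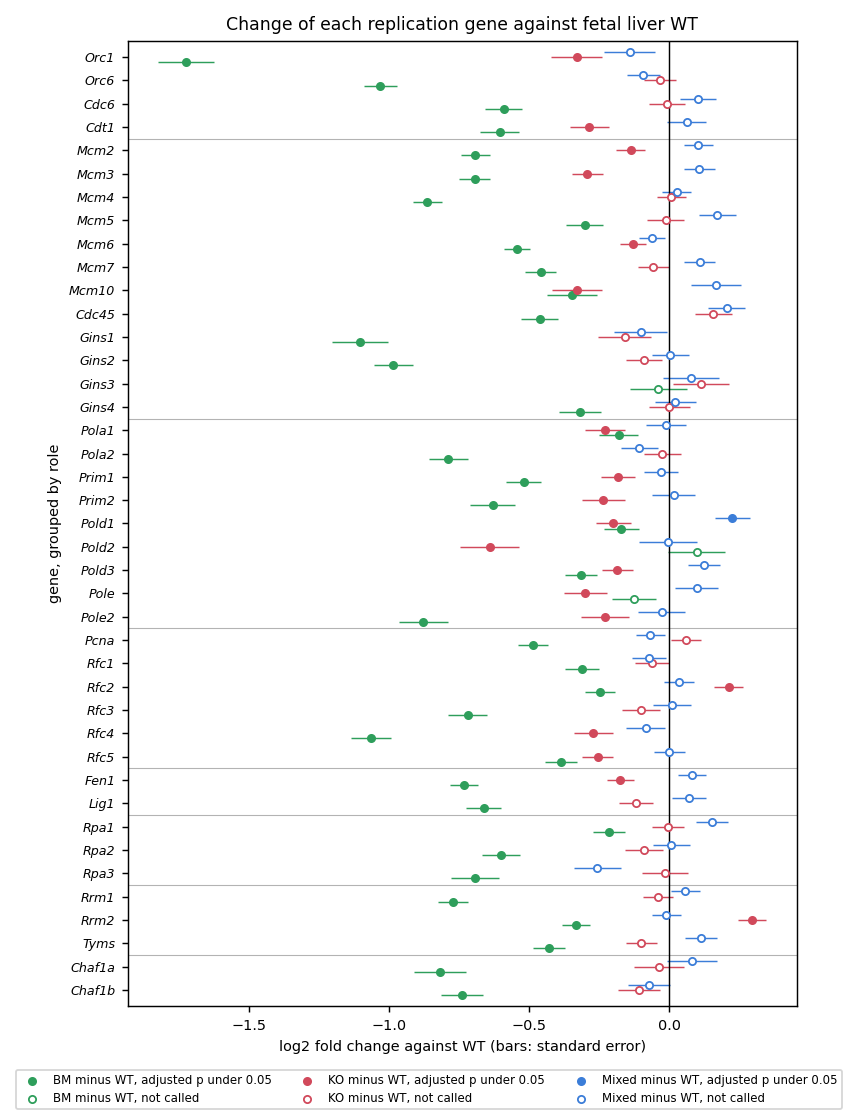
Log2 fold change against WT with its standard error for each gene, in BM (green), KO (red) and Mixed (blue), filled where the adjusted p was under 0.05. BM values lie to the left of 0 for 40 of the 41 genes, KO values for 34 and Mixed values for 15.

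Origin recognition and licensing genes had the lowest median of the 8 roles in BM, -0.82, and all 4 were lower. Orc1, a subunit of the origin recognition complex, was at 8.90, 8.86 and 8.09 CPM in BM and at 28.6, 30.7 and 26.1 in WT. It was at 22.6, 23.3 and 22.1 in KO and 24.8, 25.2 and 27.6 in Mixed. The BM libraries were far below all others, and the KO libraries were below all WT and all Mixed libraries. The Orc1 change against WT was 3.31-fold lower in BM (log2 -1.73, SE 0.10, adjusted p = 1.41e-12 by edgeR), the largest fall of any member. In KO it was 1.26-fold lower (log2 -0.33, SE 0.09, adjusted p = 0.0062).

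Orc6, another subunit of that complex, was at 57.4, 61.8 and 60.1 CPM in BM against 125.5, 117 and 125 in WT. That was 2.04-fold lower, while KO, at 119, 119 and 121, overlapped WT (log2 -0.03, adjusted p = 0.703 by edgeR). The 2 subunits thus differed in KO: Orc1 was called and Orc6 was not, though the difference between them was not tested.

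Cdt1, which brings the Mcm ring to origins, was at 72.7, 64.5 and 75.2 CPM in KO and 89.9, 78.5 and 90.8 in WT. No KO library reached the lowest WT library. The fall was 1.22-fold (log2 -0.29, SE 0.07, adjusted p = 0.00258 by edgeR), and against Mixed, at 87.6, 94.3 and 88.5 CPM, it was 1.27-fold. Against Mixed, Cdt1 was the 1 member of 21 called that stayed called through all 21 alternatives. In BM it was at 56.5, 57.7 and 55.9 CPM, 1.52-fold below WT.

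Cdc6, the ATPase that works beside Cdt1 in loading, was at 102, 107 and 98.3 CPM in BM and 147 to 162 in WT. BM was 1.51-fold lower. KO libraries spanned 142 to 169 CPM and Mixed libraries 158 to 170, both overlapping WT, and neither difference was called (log2 -0.01 and 0.10).

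Of the 12 helicase genes, 11 were lower in BM, with a median of -0.50 and a range from -1.10 to -0.04. In KO 4 of the 12 were lower, with a median of -0.07. The Mcm2 to Mcm7 subunits form a ring that holds a single copy of each. In BM all 6 were lower, from 1.23-fold for Mcm5 to 1.82-fold for Mcm4. Mcm4 was at 211, 214 and 201 CPM in BM and 378, 394 and 368 in WT. KO, at 381, 368 and 397 CPM, lay among the WT values.

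In KO the ring subunits split. Mcm3 was at 394, 399.8 and 408 CPM in KO and 464, 491 and 516 in WT, 1.22-fold lower (log2 -0.29, SE 0.06, adjusted p = 0.000206 by edgeR). Mcm2 was at 266, 274 and 274 CPM in KO and 289, 304 and 302 in WT, and Mcm6 at 410, 397 and 427 against 451, 446 and 451. KO and WT libraries did not overlap for any of the 3. Both of the smaller falls were about 1.10- and 1.09-fold, with adjusted p of 0.0368 and 0.0333 by edgeR, and each was lost under 11 of the 21 alternatives. Mcm4, Mcm5 and Mcm7 were not called (log2 0.01, -0.01 and -0.06).

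Mcm10, which binds the assembled helicase and helps to start the fork, was at 66.8, 77.5 and 76.7 CPM in KO and 84.7, 88.1 and 104.5 in WT. It was at 65.8, 81.3 and 71.0 in BM. The KO and BM values overlapped each other and both lay below WT, by 1.26-fold in KO and 1.27-fold in BM, and BM and KO were not called different (log2 -0.02, SE 0.09). Mixed was at 110, 96.1 and 105 CPM, so the fall from Mixed to KO was larger, 1.41-fold.

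Cdc45, the partner of GINS in the active helicase, was at 85.6, 88.6 and 84.6 CPM in WT, 88.8, 102 and 98.3 in KO and 103, 96.5 and 98.9 in Mixed. Every KO and every Mixed library was above every WT library, by log2 0.16 and 0.20. Neither difference was called (adjusted p = 0.0621 and 0.0566 by edgeR), and each passed under 6 and 5 of the 21 alternatives. In BM it was 1.38-fold lower.

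The GINS genes, whose 4 products form a single complex, moved by very different amounts in BM. Gins1 was at 23.1, 24.8 and 19.2 CPM in BM and 49.4, 50.9 and 43.8 in WT, 2.15-fold lower. Gins2 was at 49.8, 48.3 and 42.2 against 92.4, 87.9 and 97.3, 1.98-fold lower, and Gins4 was 1.25-fold lower. Gins3, given in full because its values stood apart once seen, was at 22.1, 17.7 and 18.3 CPM in BM and 21.3, 18.9 and 19.5 in WT. The groups overlapped, and the change was 1.03-fold (log2 -0.04, SE 0.10, adjusted p = 0.756 by edgeR). None of the 4 was called in KO, where values ran from -0.16 for Gins1 to 0.11 for Gins3.

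**Figure D4:**
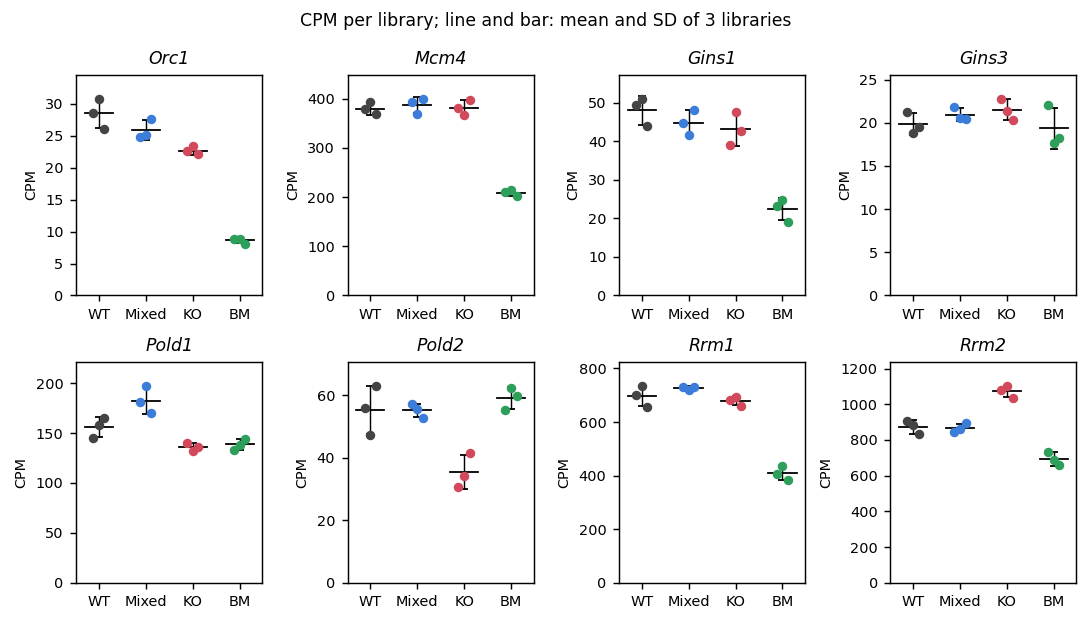
CPM in each library (points), with the mean and SD of the 3 libraries of a group (line and bar), for 8 genes on axes that start at 0. BM is lowest for Orc1, Mcm4, Gins1, Rrm1 and Rrm2, overlaps WT for Gins3 and Pold2, and KO is lowest for Pold2 and highest for Rrm2.

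Polymerase and primase genes were the role in which most members were lower in KO. Of the 9 genes, 8 were called lower and none higher, where 19.9% of all tested genes were lower and 18.2% higher. Their median was -0.23, and in BM 7 were lower with a median of -0.32, the smallest of any role. Of the 8 KO calls, Pold2 alone held through all 21 alternatives. Pole held in 20 of them, Pola1 in 18, and Prim2, Pold1 and Pold3 in 17 each, but Prim1 in 13 and Pole2 in 10. Summed over the 9 genes, the level was 627, 631 and 649 CPM in KO, 727, 740 and 759 in WT, 782, 788 and 769 in Mixed and 592, 589 and 588 in BM. The KO sums were above all BM sums and below all WT and Mixed sums. For 4 polymerase genes, Pola1, Pold1, Pold2 and Pole, KO had the lowest group mean, and BM did for the other 37 members. Of these 4, Pold2 alone was called different between KO and BM.

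Pold2, the regulatory subunit that links the catalytic subunit of polymerase delta to the rest, had the largest change of any member in KO. It was at 30.5, 34.3 and 41.3 CPM in KO, 55.7, 47.3 and 62.8 in WT, 57.0, 55.4 and 52.7 in Mixed, and 55.2, 62.2 and 59.8 in BM. Every KO library was below every library of the other groups, and those 3 groups overlapped each other. The fall against WT was 1.56-fold (log2 -0.64, SE 0.11, adjusted p = 6.78e-05 by edgeR), against Mixed 1.56-fold (adjusted p = 7.62e-05), and BM was 1.67-fold above KO. Pold2 was the 1 member higher in BM than in KO, where 31.8% of all tested genes were called higher.

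Pold1, the catalytic subunit of polymerase delta, was at 140, 133 and 136 CPM in KO, 133, 138 and 144 in BM, 145, 158 and 165 in WT and 181, 197 and 170 in Mixed. KO and BM overlapped, both below WT, and Mixed was above all. Against WT the change was 1.15-fold lower in KO, 1.13-fold lower in BM and 1.17-fold higher in Mixed. The BM call was lost when BM 1, WT 2 or WT 3 was left out. Pold3, a further subunit, was at 137, 144 and 136 CPM in KO against 147, 160 and 167 in WT, and was lower in KO by 1.14-fold and in BM by 1.25-fold.

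Pole, the catalytic subunit of polymerase epsilon, which extends the leading strand, was at 35.0, 33.1 and 38.1 CPM in KO and 42.7, 44.6 and 43.6 in WT. It was 1.23-fold lower in KO (log2 -0.30, SE 0.08, adjusted p = 0.0037 by edgeR). BM, at 43.6, 37.5 and 39.0 CPM, overlapped both WT and KO and was called different from neither. Its second subunit Pole2 behaved otherwise in BM, at 17.7, 18.2 and 16.3 CPM against 31.2 to 32.8 in WT, 1.84-fold lower, and was 1.17-fold lower in KO (adjusted p = 0.0376).

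The primase genes Prim1 and Prim2 make the RNA primers. Prim2 was at 65.7, 70.9 and 81.4 CPM in KO and 86.4, 88.7 and 81.7 in WT, so the highest KO library lay just under the lowest WT library. It was 1.18-fold lower in KO and 1.55-fold lower in BM, and Prim1 was 1.14-fold and 1.43-fold lower. Of polymerase alpha, which extends the primers, Pola1 was 1.17-fold lower in KO and 1.13-fold in BM. The Pola1 call in BM was lost when BM 1, BM 2 or WT 2 was left out. Pola2 was at 33.8, 35.1 and 31.9 CPM in BM and 60.0, 57.1 and 57.1 in WT, 1.73-fold lower, and in KO, at 58.1, 56.2 and 56.9, it overlapped WT and was the 1 polymerase gene not called.

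Clamp and loader genes moved in both directions in KO. Rfc4, a small subunit of the loader that opens the clamp, was at 97.4, 106.5 and 94.2 CPM in KO and 122, 122 and 116 in WT, 1.21-fold lower. Rfc5 was at 89.9, 91.0 and 98.6 against 109, 113 and 112, 1.19-fold lower. Rfc2, a small subunit of the same loader, was at 268, 286 and 302 CPM in KO and 245, 239.8 and 255 in WT, 1.16-fold higher. KO and WT did not overlap for any of the 3, and adjusted p was 0.00388, 0.00107 and 0.0029 by edgeR. With total counts and no TMM scaling Rfc2 was no longer called (log2 0.11, adjusted p = 0.102).

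All 6 clamp and loader genes were lower in BM, with a median of -0.44. Rfc4 was at 59.2, 51.7 and 60.8 CPM there, 2.09-fold below WT, and Rfc3 at 37.3, 39.5 and 35.1 against 60.0, 62.2 and 62.0, 1.65-fold lower. Rfc2 was lower by only 1.19-fold. Pcna, the clamp itself, was at 213, 205 and 198 CPM in BM and 291, 277 and 295 in WT, 1.40-fold lower. In KO it was at 298, 314 and 288 and in Mixed at 263, 281 and 280, both overlapping WT. A processed copy, Pcna-ps2, had 3.42 to 7.81 CPM across the libraries, and reads shared between such copies could have been split in the counting.

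Fen1, which cuts the flaps between Okazaki fragments, was at 251, 251 and 243 CPM in BM, 357, 359 and 381 in KO, and 403, 406 and 429 in WT. The 3 groups did not overlap, and Fen1 was 1.66-fold lower in BM and 1.13-fold lower in KO. Lig1, the ligase that seals the fragments, was at 135, 149 and 146 CPM in BM and 210.5, 229 and 241 in WT, 1.58-fold lower. KO, at 196, 213 and 218.5 CPM, overlapped WT (log2 -0.12, adjusted p = 0.141 by edgeR).

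Single-strand binding genes encode the RPA trimer, which coats unwound DNA. None of the 3 was called in KO against WT, and all 3 were lower in BM. Rpa1, the large subunit, was at 309, 335 and 309 CPM in BM, 339, 380 and 383 in KO, 361, 372 and 373 in WT and 432, 391 and 407 in Mixed. KO overlapped WT, and BM was 1.16-fold below WT. Rpa2 was at 64.7, 65.2 and 60.3 CPM in BM against 96.9, 97.1 and 94.5, 1.52-fold lower, and Rpa3 at 37.0, 28.8 and 35.1 against 56.1, 53.9 and 53.1, 1.62-fold lower. Rpa3 in Mixed, at 42.4, 45.6 and 48.5 CPM, was below every WT library without being called (log2 -0.26, SE 0.08, adjusted p = 0.0626 by edgeR).

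Of the 3 nucleotide supply genes Rrm2 alone was called higher in KO, with the largest rise of any member. Rrm2 encodes the S-phase subunit of ribonucleotide reductase, which makes deoxynucleotides from ribonucleotides. It was at 1079, 1100 and 1037 CPM in KO, 906, 884 and 831 in WT, 847, 861 and 893 in Mixed and 733, 689.5 and 657 in BM. KO lay above all other libraries and BM below all. Rrm2 was 1.23-fold above WT in KO (log2 0.30, SE 0.05, adjusted p = 7.18e-05 by edgeR) and 1.24-fold above Mixed (adjusted p = 5.1e-05), and 1.26-fold below WT in BM.

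Rrm1, the large subunit of the same enzyme, did not follow it in KO. It was at 681, 695 and 661 CPM there, 702, 733 and 658 in WT and 729.9, 718 and 731.5 in Mixed, so KO and WT overlapped (log2 -0.04, adjusted p = 0.611 by edgeR). In BM it was at 408, 434.5 and 382 CPM, 1.71-fold below WT. Tyms, which makes the thymidine nucleotide, was at 188, 195 and 173 CPM in BM and 256.5, 243 and 249.6 in WT, 1.35-fold lower. In KO, at 226, 236.5 and 237, every library was below every WT library, but Tyms was not called (log2 -0.10, adjusted p = 0.178).

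The 2 chromatin assembly genes encode subunits of CAF-1, which places histones behind the fork. Chaf1a was at 14.1, 12.6 and 15.2 CPM in BM and 25.2, 25.1 and 23.6 in WT, 1.76-fold lower. Chaf1b was at 43.8, 45.8 and 41.7 against 69.5, 77.7 and 72.0, 1.67-fold lower. In KO, Chaf1b at 61.9, 73.9 and 67.8 CPM overlapped WT and neither gene was called (log2 -0.04 and -0.11).

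Levels of different genes can be set side by side per transcript length, as the deposited TPM values (transcript abundance corrected for length). In WT, Rrm2 was the highest of the 41 at 559 ± 28.2 TPM (SD, n = 3), followed by Rfc2 at 303, Pcna at 289 and Tyms at 284 TPM. Chaf1a was the lowest at 6.01 TPM, followed by Gins3, then Pole at 12.3 TPM and Orc1. Among the 6 ring subunits Mcm5 was highest and Mcm2 lowest in every library, at a ratio of 1.9 to 2.13 in WT, 1.98 to 2.26 in Mixed, 2.07 to 2.34 in KO and 2.48 to 3.01 in BM. The ring subunits were thus least even in BM. In the GINS complex Gins2 was highest and Gins3 lowest in every library, and here the ratio was smaller in BM, at 4.61 to 5.46, than in WT at 9.5 to 10.4.

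Ratios of TPM between partner subunits, taken within each library, do not depend on the scaling between libraries. The ratio of Rrm2 to Rrm1 was 2.68, 2.79 and 2.7 in KO and 3.05, 2.76 and 2.94 in BM, against 2.23, 2.11 and 2.06 in WT and 2.07, 2.1 and 2.04 in Mixed. Both KO and BM lay above WT and Mixed without overlap. Pold2 to Pold1 was 0.401, 0.491 and 0.595 in KO, 0.641, 0.62 and 0.635 in Mixed and 0.849, 0.885 and 0.802 in BM. In WT it was 0.781, 0.577 and 0.762, so KO 3 overlapped WT 2.

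Rfc4 to Rfc2 was 0.401, 0.375 and 0.33 in KO, 0.269, 0.278 and 0.298 in BM, 0.483, 0.511 and 0.47 in WT and 0.46, 0.509 and 0.483 in Mixed. WT and Mixed overlapped, KO lay below both and BM below KO. Gins3 to Gins1 was 0.43, 0.317 and 0.423 in BM and 0.173 to 0.249 in the fetal liver libraries, with all BM ratios above the rest. These pairs were chosen from 13 computed, with the values known, and are given without a test.

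**Figure D5:**
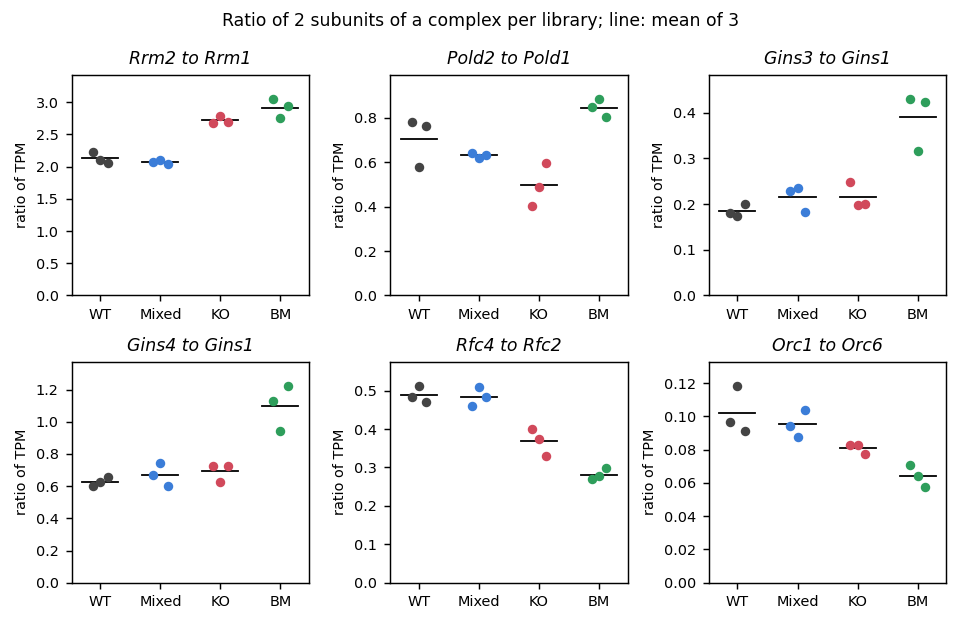
Ratio of TPM between 2 subunits of a complex in each library (points), with the mean of the 3 libraries of a group (line), for 6 pairs on axes that start at 0. KO and BM are above WT and Mixed for Rrm2 to Rrm1, KO and BM are below them for Rfc4 to Rfc2, and BM alone is raised for Gins3 and Gins4 to Gins1.

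Members with an E2F word in the window and those without had nearly equal medians in BM against WT, -0.57 (n = 14) and -0.56 (n = 20). In KO they were -0.16 and -0.08. Lower in KO were 8 of the 14 with a word and 7 of the 20 without, and the 1 higher gene with a window, Rrm2, had none. The Gins3 window holds an E2F word and the gene was not called in BM or KO against WT. Rfc2, the other member higher in KO, had no window here.

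KO against Mixed, which shares the KO libraries with KO against WT, gave 18 members lower and 3 higher. Of all tested genes 18.5% were called lower, 18.2% higher and 36.7% in either direction, and the median of the members was -0.16. All KO libraries lay below all Mixed libraries for 22 members, as they did for 24.6% of all tested genes. The lower genes with the largest change were Pold2 (1.56-fold), Mcm10 (1.41-fold), Pold1 (1.34-fold), Mcm3 and Pole (both 1.32-fold). The 3 higher genes were Rrm2, Rpa3 (1.18-fold) and Rfc2 (1.13-fold). Among all genes called, 49.5% were higher in KO with TMM and 33.7% with total counts. With embryonic day in the fit 1 member, Cdt1, stayed lower and none higher, and day and genotype cannot be told apart between these groups.

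BM was also low against the other fetal liver groups. Against Mixed, 39 members were lower and none higher, where 28.9% of all tested genes were called lower, 29.5% higher and 58.4% in either direction, with a median of -0.61. All BM libraries lay below all Mixed libraries for 38 members and above for none, where 31.7% and 32.4% of all tested genes did so. Against KO, 34 were lower and 1 higher, where 32% of all tested genes were called lower and 63.8% in either direction, with a median of -0.51. Tissue and age cannot be told apart in these comparisons, as the fetal libraries are from liver and the BM libraries carry no age.

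Summed over the 41 genes, the level was 5626, 5778 and 5514 CPM in BM, 7656, 7943 and 7956 in KO, 7981, 8139 and 8138 in WT, and 8494, 8207 and 8445 in Mixed. BM was at 0.697 of the WT mean and KO at 0.971. The highest KO sum, 7956, lay just below the lowest WT sum, 7981. Without Rrm2, the most abundant member by CPM, KO was at 0.94 of WT. Its highest library, at 6919 CPM, again lay below the lowest of WT, at 7075. By role, KO was at 0.857 of WT for the polymerase genes, 1.00 for clamp and loader and 1.09 for nucleotide supply. In that last role Rrm2 alone was higher, while Rrm1 (log2 -0.04) and Tyms (-0.10) were not called. The median coefficient of variation of a member over the 3 libraries of a group was 3.97 to 5.42%.

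Other genes of the pathway were taken in lists that do not overlap the 41. The shares of all tested genes to set beside these lists were 31.9% lower and 32.1% higher in BM against WT. In KO against WT they were 19.9% and 18.2%. Of 13 further licensing and firing genes, 11 were lower in BM and 1 higher, among them Gmnn, the inhibitor of Cdt1 (log2 -0.95), and the origin recognition genes Orc4 (-0.91) and Orc2 (-0.79). In KO 5 of these 13 were lower and none higher, led by Orc5 (-0.56), Orc2 (-0.51) and Orc4 (-0.44). Of 15 further nucleotide supply genes, 11 were lower in BM and 3 higher. Shmt1 of folate metabolism (-1.77), Cad of pyrimidine synthesis (-1.49) and Dut, which degrades dUTP (-1.45), led the falls.

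In KO 7 of those 15 were lower and 2 higher, where 19.9% and 18.2% of all tested genes were. Cad was at 29.2, 29.3 and 31.9 CPM in KO against 53.7, 59.7 and 51.6 in WT (log2 -0.87), and Shmt1 was lower by 0.62 on the log2 scale. Samhd1, which breaks down deoxynucleotides, was at 465, 490 and 427 CPM in KO against 278, 275 and 266 in WT (log2 0.75) and at 717, 700.2 and 663 in BM. The RNA of Samhd1 and that of Rrm2, but not that of Rrm1, were thus called higher in KO than in WT.

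In Mixed against WT no more than 3 genes of any of the 8 lists were called higher, and no more than 3 lower. Of all tested genes 4.21% were called higher and 3.87% lower. Some lists were above those shares, with 3 of 12 polymerase and maturation genes higher and 2 of 8 histone chaperone genes lower. Of the 6 alternative clamp loader genes 0 were called. Among the genes called, Cdc7, the kinase that fires origins, was higher (log2 0.26) and Orc4 was lower (-0.27). Asf1a was lower (-0.66), as was Ccnd2 (-0.64).

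Of 8 further histone chaperone and maintenance genes, 7 were lower in BM and 2 in KO. Asf1a, which hands histones to CAF-1, changed most in both, by -2.17 and -0.90 on the log2 scale, with Nasp (-1.35) and Hat1 (-1.31) next in BM. Of 10 fork protection genes, 6 were lower and 2 higher in BM, with Chek1 (-0.96) and Clspn (-0.90) of the checkpoint lower, and in KO 2 were lower, Atr (-0.62) and Tipin (-0.25), and 1 higher, Timeless (0.30). Timeless and Tipin encode partners in a single complex. The largest change of these 10 in BM was a rise, that of Mcmdc2 (log2 1.59), at 2.73 to 4.29 CPM against 0.95 to 1.61 in WT. Of 12 further polymerase and maturation genes, 4 were lower and 3 higher in BM, and 4 lower and 1 higher in KO. The BM counts of these 12 were near the shares over all tested genes, 31.9% lower and 32.1% higher. In KO those shares were 19.9% and 18.2%. Of 6 genes of alternative clamp loaders, 4 were lower in BM and 2 in KO, and none was higher in either.

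Of 24 E2F and G1 regulators, 14 were lower and 9 higher in BM, where 31.9% and 32.1% of all tested genes were. In KO 7 were lower and 4 higher, where 19.9% and 18.2% of all tested genes were. E2f2 was at 199.6, 213 and 199.2 CPM in BM, 91.2, 98.9 and 93.7 in KO, and 59.6, 61.9 and 57.7 in WT, higher in both against WT (log2 1.77 and 0.66). Ccnd2, a D-type cyclin, was at 141, 90.6 and 102 CPM in KO and 42.1, 44.0 and 39.4 in WT (log2 1.41), and at 3.52, 4.71 and 3.62 in BM (log2 -3.40). E2f6, a repressor of the family, was lower in KO (log2 -1.82). Ccnd3, the most abundant of the 3 D-type cyclin genes by CPM and named after its values were seen, was at 340 to 350 CPM in BM and 272 to 306 in WT (log2 0.26, higher), and at 268 to 275 in KO (log2 -0.08, not called). Ccnd1, the remaining D-type cyclin gene, was at 1.32 to 1.84 CPM in BM, 14.6 to 24.0 in KO and 11.3 to 16.2 in WT. In BM Ccnd1 and Ccnd2 thus lay below every WT library and Ccnd3 above, so the D-type cyclin genes did not move as one.

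Of 20 genes of G2 and mitosis, 12 were lower and 2 higher in BM, where 31.9% and 32.1% of all tested genes were. Their median in BM was -0.27, with Aurka (-0.93), Bub1 (-0.87) and Ccnb1 (-0.86) lowest. In KO 2 of the 20 were lower and 3 higher, where 19.9% and 18.2% of all tested genes were. Mki67, a mark of cycling cells chosen after its values were seen, was at 295 to 331 CPM in all 12 libraries. It was not called in any of the 6 comparisons (BM against WT log2 -0.03, SE 0.05, adjusted p = 0.667 by edgeR). Tk1, the S-phase thymidine kinase and also chosen after its values were seen, was at 111 to 131 CPM and was called in none.

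Markers of other cell types moved with the groups. A list of 12 red cell genes summed to 15.1 to 32.1 CPM in BM, 1041 to 1949 in WT, 859.9 to 1686 in Mixed and 679 to 1460 in KO, with 12 of 12 lower in BM and none called in KO against WT. A list of 7 granulocyte precursor genes summed to 1644 to 1894 CPM in BM, 2795 to 3272 in KO, with 6448 to 7314 in WT and 6095 to 6538 in Mixed. A list of 8 stem and progenitor genes summed to 50.5 to 56.1 CPM in BM, 267 to 308 in KO, with 579 to 627 in WT and 577 to 604 in Mixed. Of the stem and progenitor genes 1 was at 0 in BM. In WT and KO most of each sum was 1 gene: Mpo, at 5043 to 5916 CPM in WT and 1829 to 2199 in KO, and Cd34, at 519.9 to 560 and 165 to 180. Single genes of the lists differed in direction. Of all tested genes, 18.2% were called higher and 19.9% lower in KO against WT, and 32.1% and 31.9% in BM against WT. Of the 7 stem and progenitor genes tested, 2 were higher and 2 lower in KO against WT, and 1 higher and 6 lower in BM. Of the granulocyte precursor genes, 1 was higher and 4 lower in KO, and 2 higher and 5 lower in BM. Flt3, at 60.7 to 70.3 CPM in KO against 5.50 to 7.51 in WT, and Elane, at 638 to 709 in BM against 469 to 483, went against the sums.

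A list of 9 conventional dendritic cell genes was higher in KO in 9 of 9, at 908 to 961 CPM against 32.7 to 39.7 in WT, and a list of 8 neutrophil granule genes summed to 6538 to 8850 CPM in KO and 3559 to 5148 in WT. Of those 8, 4 were higher in KO and none lower, where 18.2% and 19.9% of all tested genes were. S100a8 made up most of the sum, at 4969 to 6276 CPM in KO and 2739 to 3377 in WT. Ngp, at 101 to 478 and 245 to 705 CPM, had a lower mean in KO. No gene of the red cell, granulocyte precursor or dendritic cell lists was at 0 in all libraries of a group. Genes of liver parenchyma summed to at most 0.385 CPM in BM, 3 of 5 being at 0, and to 8.4 to 61.0 in WT and 15.6 to 76.5 in KO. The part of these other cell types in the replication gene results was not tested.

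Reads of neighbouring genes could enter some values, since the library kit does not mark strand. Of the 41 genes, 16 overlap a gene on the other strand, 11 one on the same strand and 21 either, in the GENCODE annotation. Those include Orc1, Orc6, Cdt1, Mcm7, Rfc2, Rfc4, Rfc5, Pold1, Pole and Fen1, whereas Mcm3, Gins1, Gins3, Pold2 and Rrm2 overlap none.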

How the data were processed

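The 12 libraries are bulk RNA-seq of monocytes, prepared with Takara's SMARTer Ultra Low kit and sequenced on a NovaSeq X Plus, per the labels' protocols. The submitters' processing notes list Salmon, STAR, DRAGEN, featureCounts and Subread, and build mm10, with no role or order. The values tested are the authors' deposited estimated counts. Of the nonzero counts 28.5% were not whole (tolerance 1e-06), so they were rounded. The TPM values are those deposited by the authors, and serve for levels between genes and for ratios within a library. The deposited CPM table was not used. Of 55774 entries, 287 repeated an Ensembl gene with identical values and were removed.

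Genes were filtered by edgeR's filterByExpr (minimum count 10, minimum total 15), which left 14618 genes and removed 40869. In every library the genes left held 99.8% or more of the counts. TMM scaling, estimateDisp (common biological coefficient of variation 0.0917) and the robust quasi-likelihood test (glmQLFit, glmQLFTest) were applied to the 12 libraries together, with 1 coefficient for each group. Tests were two-sided with Benjamini-Hochberg adjustment over all genes tested. Values in the text with no p are a description. The tools were edgeR 4.0.16 and, for alternatives, DESeq2 1.42.0, under R 4.3.3. Positions are 1-based on GRCm38, the assembly that mm10 denotes, from GENCODE, and promoter windows from RefSeq. Where a gene had more than 1 window, all were searched.

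The members, pathway lists and marker lists were chosen with earlier results of these data known. Values in every library are given, by role, for the called members with the largest change, up to 3 in KO against WT, 2 in BM against WT and 1 in Mixed against WT, and the most abundant where none was called. A few more members are given in full for comparison, chosen with their values known. Of each pathway list, up to 3 called genes with large changes are named in a comparison, not always the largest. A few more are named with their values known. Alternatives were other scalings (DESeq2 size factors, upper quartile, total counts), no filter or a minimum count of 50, the compared groups only, the replicate number as a block, embryonic day as a covariate, the DESeq2 Wald test and leaving out each library.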

Additional observations from a re-analysis of the deposited data

How the results depend on the processing

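No member changed direction between called values under any alternative. In KO against WT, 17 members were lower and 2 higher. Total counts without TMM gave 27 and 1, no filter on low counts gave 9 lower, and embryonic day as a covariate gave 4. Leaving out each library gave 11 to 17 lower and 2 to 3 higher. In Mixed against WT, 1 member was higher and none lower. With no filter, a minimum count of 50 or the compared groups only 2 were higher, as with the DESeq2 Wald test, and with embryonic day 0 were. The compared groups only and the DESeq2 Wald test each gave 1 lower, and leaving out each library gave 0 to 2 higher and 0 to 1 lower. In KO against Mixed, 18 were lower and 3 higher. Total counts gave 27 lower and 1 higher, embryonic day gave 1 lower and 0 higher, and leaving out each library gave 12 to 19 lower and 1 to 4 higher, the 1 being without Mixed 2. In BM against KO, total counts gave 2 higher, where 1 was, and leaving out each library gave 1 to 2 higher, the 2 being without KO 3, and 33 to 35 lower. The lower counts in BM against WT (36 to 38) and against Mixed (38 to 39) held when each library was left out. The cause of these differences was not tested, except that embryonic day in the fit, which also leaves out the BM libraries, sets WT 1 alone against KO, and that library is assumed to vary like the others. Over all genes, Mixed against WT gave 1180 calls, 399 with embryonic day and 414 to 1457 when each library was left out, and KO against Mixed gave 5365 and 1978.

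No label says whether the replicate numbers pair the samples, and the libraries showed no clear pairing by number. Deviations of same-numbered libraries from their group means correlated at -0.0353 to 0.0693 (18 pairs, median 0.00855). Those of other pairs correlated at -0.0656 to 0.0456 (median 0.00185), and 5 of 12 libraries correlated better with their own number. With group means of 3 libraries, such a check cannot exclude a pairing. With the replicate number as a block, 17 members were lower and 2 higher in KO against WT, 38 lower in BM against WT, 17 lower and 3 higher in KO against Mixed, and the other counts did not move. Groups of 3 libraries limit what can be called, and the smallest change called among the members in KO against WT was 1.09-fold (Mcm6).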
